A study of Homo sapiens with 8 samples.

Results

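IFIT1, IFIT2, IFIT3, IFIT5, OAS1, OAS2, OAS3, OASL, MX1 and RSAD2 are antiviral genes of the interferon response, and their RNA levels were compared between CFPAC-1 cells that carried an ADRA2A transgene and cells that carried an empty vector. The 10 genes were taken by symbol from the deposited table of estimated counts, which held 58870 genes, and all 10 were among the 14785 genes abundant enough to be tested. CFPAC-1 is an established human cell line from a pancreatic ductal adenocarcinoma. ADRA2A is the gene of an adrenergic receptor of the alpha-2 class, which responds to noradrenaline and adrenaline through inhibitory G proteins. Bulk RNA was sequenced from 4 empty-vector samples and 4 ADRA2A-transgene samples. Both groups were untreated and had been kept for 72 hours in IMDM with 10% serum and 1% penicillin and streptomycin. The promoter of the vector, and whether the cells were a single clone or a pool, are not given in the sources used here. Separate cultures are not stated for the replicates either, so p-values set the group difference against the spread between these samples, which may be technical. An effect of the transgene and another difference between the transgene and empty-vector cells cannot be told apart with these samples. Rose and fell below compare the groups.

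Type I and type III interferons bind receptors on the cell surface, and the kinases JAK1 and TYK2 then activate transcription factors, among them STAT2. STAT2 and IRF9 act in a complex that binds interferon-stimulated response elements in promoters. IFIT proteins bind viral RNA or the translation machinery. OAS1, OAS2 and OAS3 sense double-stranded RNA and make oligoadenylates that activate RNase L, whereas OASL is a related protein without that enzymatic activity. MX1 is a dynamin-like GTPase that blocks steps of viral replication, and RSAD2 (viperin) makes a nucleotide that stops viral RNA chains. Tumour cells can express such genes in culture without added interferon.

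RefSeq promoter windows on GRCh38.p14, each running from 250 bases before to 50 bases after an annotated start, were matched for 7 of the 10 genes, with 11 windows between them. IFIT2, OAS2 and OASL were not matched. The core of the interferon-stimulated response element was searched on both strands as GAAANNGAAA, which reads TTTCNNTTTC on the opposite strand. A form with a single base between the repeats, GAAANGAAA or TTTCNTTTC, was added after the windows had been seen. The stretches below are shown because they hold one form or the other near annotated starts of these genes. A link between the matches and the levels reported below was not tested. Those of OAS1, the first of MX1 and the first of RSAD2 hold only the added form. They are written on the plus strand, with matches to either form in capitals. Where GENCODE release 44 places an exon of any transcript in the stretch, at most 30 bases are given.

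IFIT1, chr10:89392495-89392541, 128 to 82 bases before the start: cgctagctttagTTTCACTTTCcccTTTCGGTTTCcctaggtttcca

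IFIT3, chr10:89327829-89327896, 168 to 101 bases before one start: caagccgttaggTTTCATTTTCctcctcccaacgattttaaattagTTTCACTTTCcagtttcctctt

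IFIT3, chr10:89332470-89332499, 59 to 30 bases before another start: tccatcagTTTCACTTTCCTTTCccctttc

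IFIT5, chr10:89414513-89414542, 55 to 26 bases before the start: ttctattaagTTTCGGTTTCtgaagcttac

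OAS1, chr12:112906933-112906961, 29 to 1 bases before the start: ctcccttctgagGAAACGAAAccaacagc

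OAS3, chr12:112938318-112938347, 156 to 127 bases before the start: gctagaaaGAAACGAAACTGAAAgcaggga

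MX1, chr21:41426115-41426144, 124 to 95 bases before one start: caggagctaggTTTCGTTTCtgcgcccgga

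MX1, chr21:41431842-41431875, 208 to 175 bases before another start: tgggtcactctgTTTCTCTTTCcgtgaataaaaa

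RSAD2, chr2:6865722-6865751, 163 to 134 bases before one start: gccccgcctcgGAAACGAAAcctggcggga

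RSAD2, chr2:6877622-6877651, 155 to 126 bases before another start: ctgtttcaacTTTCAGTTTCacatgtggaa

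The form with 2 bases between the repeats was found in 8 of the 11 windows (72.7%), which belonged to 6 of the 7 genes, against 1255 of 35116 promoter windows of the same length in all (3.57%). OAS1 was the gene without it. The form with 1 base was found in 6 of the 11 windows (54.5%), against 1097 of all windows (3.12%). One or the other was present in 11 of 11 windows, against 6.4% of all windows and 64.4% of the windows of 45 other interferon-stimulated genes. For the form with 2 bases alone, the share in the windows of those other genes was 50.8%. The form with 1 base was added after these windows had been seen, so its counts, and those of either form, are a description only. The first RSAD2 window held GAAACGAAA 4 times, of which the first is shown. Further matches that are not shown lay in the windows of IFIT5, OAS3, the second IFIT3 stretch and the first MX1 stretch. A further MX1 window, with its start at chr21:41420558, held both forms and has no stretch shown. The 2 forms overlap in the second IFIT3 stretch and in the OAS3 stretch, where the run of capitals covers both. These matches describe letters in a window and were not tested as sites of binding.

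The libraries held between 14427040 and 17528910 estimated counts. ADRA2A had 0 counts in each of the 4 empty-vector libraries and 112, 142, 154 and 172 counts in the 4 ADRA2A libraries. Epithelial markers summed to between 12100 and 12700 CPM (counts scaled to library size) with the empty vector and between 12000 and 13100 CPM with the transgene, and 8 of 9 were abundant enough to test, CFTR being the exception. Of those 8, 3 rose (MUC1 by 0.79 ± 0.04 on the log2 scale) and 4 fell (KRT7 fell by 0.43 ± 0.03 and CDH1 fell by 0.33 ± 0.03). Of 14 immune markers, 6 had no count in any library (CD3E, CD3D, MS4A1, NKG7, LILRA4 and CLEC4C) and the pan-leukocyte marker PTPRC had at most 4 counts. The immune list still summed to between 122 and 134 CPM with the empty vector and between 199 and 212 CPM with the transgene, and LYZ (31.9 to 89.7 CPM) and CD68 (91.6 to 114 CPM) made up nearly all of it. The fibroblast list summed to between 78.0 and 82.4 CPM with the empty vector and between 23.9 and 26.3 CPM with the transgene, nearly all of it COL1A1. The endothelial list summed to between 2.05 and 2.71 CPM with the empty vector and between 2.64 and 3.35 CPM with the transgene, with PECAM1 higher (1.66 ± 0.28) and KDR lower (-1.35 ± 0.33) on the log2 scale. The part of LYZ, CD68, COL1A1, PECAM1 and KDR in the results below was not tested.

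The 10 antiviral genes all rose with the transgene. With edgeR's quasi-likelihood test, 10 of 10 had an adjusted p under 0.05 and 0 fell, where 42.7% of all tested genes passed in either direction and 21.6% passed as higher. Fold changes ran from 1.25 for IFIT5 to 2.12 for OAS2, and the median log2 fold change was 0.76, against 0.0 for all tested genes. In 10 of 10 genes every ADRA2A library lay above every empty-vector library, which held for 19.7% of all tested genes. OAS2 and MX1 also had a log2 fold change of at least 1, and 2.55% of all tested genes were called higher at that size. That count of 2 rests on single libraries: it was 0 without empty-vector replicate 3, 5 without empty-vector replicate 1, and 1 without empty-vector replicate 4 or without ADRA2A replicate 4. In bulk RNA, more cells that express a gene and more RNA per cell cannot be told apart.

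**Figure D1:**
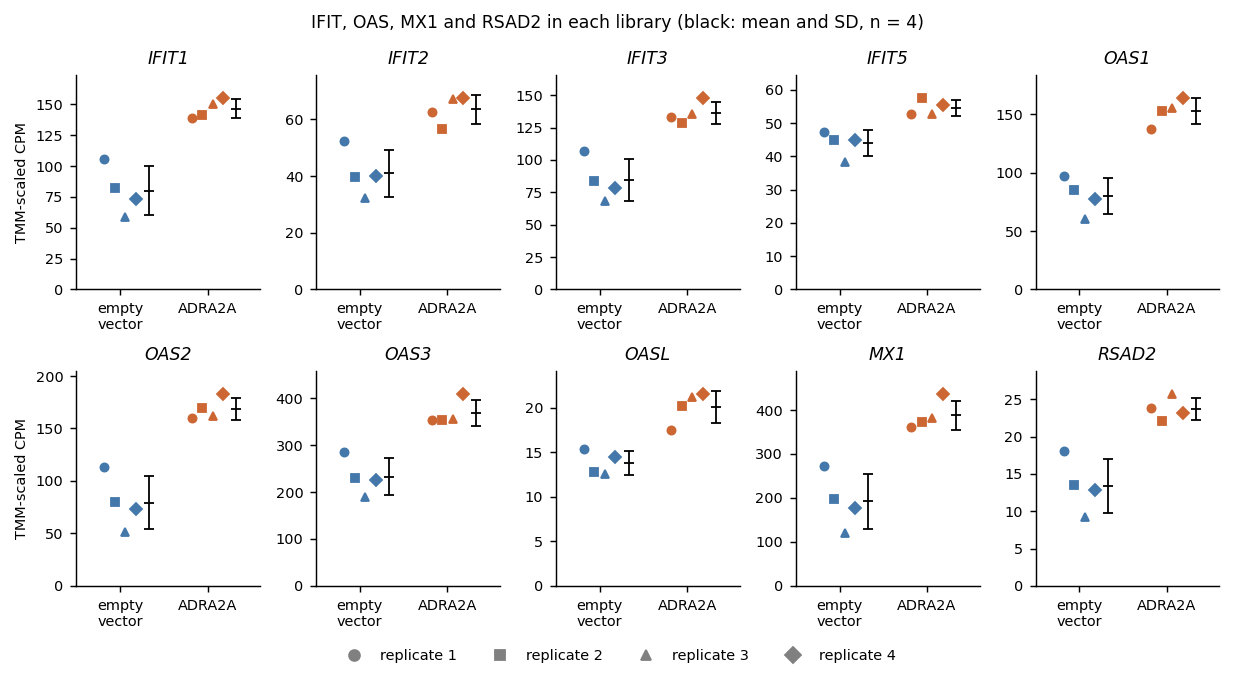
TMM-scaled CPM (vertical axes, starting at 0) of each gene in the 4 empty-vector (blue) and 4 ADRA2A (orange) libraries, with marker shape for the replicate number and black bars for mean and SD. In each panel the 4 ADRA2A libraries lie above the 4 empty-vector libraries, and empty-vector replicate 1 is the highest and replicate 3 the lowest of its group.

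The IFIT genes lie side by side on chromosome 10 (GRCh38, plus strand). Levels are given below as CPM with TMM scaling (edgeR's trimmed-mean factors), in the order of replicates 1 to 4, and fold changes come from edgeR's quasi-likelihood fit with Benjamini-Hochberg adjustment over all tested genes. IFIT1 (ENSG00000185745.10, 89392546 to 89406487), which binds viral RNA that lacks the methylated cap of host messages, stood at 106, 82.2, 58.7 and 73.3 CPM in the empty-vector libraries and at 139, 141, 150.4 and 156 CPM in the ADRA2A libraries. The means were 80.1 ± 19.9 and 147 ± 7.72 CPM (SD, n = 4). The lowest ADRA2A library was 1.31 times the highest empty-vector library, so the groups did not overlap. The log2 fold change was 0.87 ± 0.11 (SE), with an adjusted p of 1.47e-06.

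IFIT3 (ENSG00000119917.14, 89327307 to 89377473), a partner that stabilises IFIT1 on RNA, showed nearly the same pattern. Its level was 107, 83.9, 68.2 and 78.7 CPM in the empty-vector libraries and 133, 128, 136 and 148 CPM in the ADRA2A libraries. This gave a log2 fold change of 0.69 ± 0.09 (adjusted p = 2.77e-06). IFIT2 (ENSG00000119922.10, 89283694 to 89309271), known for binding AU-rich RNA and for promoting apoptosis, was less abundant. It stood at 52.3, 39.8, 32.3 and 39.9 CPM with the empty vector and at 62.6, 56.8, 67.1 and 67.7 CPM with the transgene. Its groups came closest to touching, since the lowest ADRA2A library was 1.09 times empty-vector replicate 1. IFIT2 had a log2 fold change of 0.63 ± 0.10 (adjusted p = 2.44e-05).

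IFIT5 (ENSG00000152778.9, 89414568 to 89421605), which works as a single protein and binds RNA ends that carry a triphosphate, rose least of the 10 genes. It measured 47.4, 45.0, 38.3 and 44.9 CPM in the empty-vector libraries and 52.7, 57.7, 52.7 and 55.5 CPM in the ADRA2A libraries. IFIT5 thus rose by 0.32 ± 0.06 on the log2 scale (adjusted p = 0.000277), or 1.25-fold. Over the IFIT family the fold ran from 1.25 for IFIT5 through 1.55 for IFIT2 and 1.61 for IFIT3 to 1.83 for IFIT1. The annotated gene LIPA overlaps IFIT1, IFIT2 and IFIT3 on the opposite strand, and its own log2 fold change was 0.18 ± 0.04. The use of strand in counting is not given in the sources used here, so reads of overlapping genes on opposite strands may not have been told apart.

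OAS1, OAS3 and OAS2 lie in a row on the plus strand of chromosome 12. OAS1 (ENSG00000089127.13, 112905856 to 112933219), the smallest of the synthetases, stood at 97.3, 85.0, 60.5 and 77.8 CPM in the empty-vector libraries and at 138, 153, 156 and 164 CPM in the ADRA2A libraries. Its groups were well apart, with the lowest ADRA2A library at 1.41 times the highest empty-vector library. The log2 fold change of 0.93 ± 0.09 had the smallest adjusted p of the 10 genes, 7.38e-08.

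OAS2 (ENSG00000111335.12, 112978395 to 113011723), the synthetase with a pair of catalytic-type units, had the highest fold change. It measured 113, 79.9, 51.6 and 73.0 CPM with the empty vector and 160.1, 169, 162 and 183 CPM with the transgene, for means of 79.4 ± 25.4 and 168 ± 10.4 CPM (SD, n = 4). Its log2 fold change was 1.09 ± 0.13 (adjusted p = 1.58e-06). The 4 empty-vector libraries differed from each other 2.19-fold, slightly more than the 2.12-fold difference between the groups, while the ADRA2A libraries differed 1.14-fold. Set against single empty-vector libraries, the ADRA2A mean was 1.49 times replicate 1 and 3.26 times replicate 3.

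OAS3 (ENSG00000111331.13, 112938051 to 112976460), the synthetase reported to activate RNase L most strongly in human cells, had the most counts of the OAS genes. It stood at 286, 230.2, 190.2 and 226 CPM in the empty-vector libraries and at 353, 354, 356 and 409 CPM in the ADRA2A libraries, where replicate 4 stood above the other 3. OAS3 rose by 0.66 ± 0.08 on the log2 scale (adjusted p = 1.42e-06). OASL (ENSG00000135114.12, 121017763 to 121039246, minus strand) lies apart from the cluster and enhances signalling by the RNA sensor RIG-I. It measured 15.4, 12.8, 12.6 and 14.5 CPM with the empty vector and 17.5, 20.2, 21.2 and 21.6 CPM with the transgene. Its log2 fold change of 0.54 ± 0.09 (adjusted p = 5.96e-05) came with nearly equal spread in both groups, a highest-to-lowest ratio of 1.23 in each.

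MX1 (ENSG00000157601.14, chromosome 21, 41420020 to 41470071, plus strand) varied most between empty-vector libraries. It stood at 273, 198, 119.6 and 177 CPM there and at 360.3, 372, 382 and 436 CPM in the ADRA2A libraries, for means of 192 ± 63.6 and 388 ± 33.7 CPM (SD, n = 4). The groups did not overlap, although the empty-vector libraries spanned 2.29-fold and the group means differed 2.02-fold. The log2 fold change was 1.01 ± 0.14 (adjusted p = 8.65e-06). TMPRSS2, annotated on the opposite strand over part of MX1, had at most 104 counts in a library and moved the other way, with a log2 fold change of -0.66 ± 0.15.

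RSAD2 (ENSG00000134321.12, chromosome 2, 6865557 to 6898239, plus strand) was among the less abundant of the 10 genes. Its level was 18.1, 13.5, 9.24 and 12.8 CPM in the empty-vector libraries and 23.8, 22.1, 25.7 and 23.2 CPM in the ADRA2A libraries. The lowest ADRA2A library was 1.22 times empty-vector replicate 1, and the log2 fold change was 0.82 ± 0.13 (adjusted p = 3.25e-05). CMPK2, the neighbour that starts on the opposite strand and is itself interferon-induced, had a log2 fold change of 0.86 ± 0.12. The annotated genes overlap around the first of the RSAD2 starts given above. Annotated exons of both reach into the bases that hold the matches before that start.

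The empty-vector libraries were not alike in these genes. Replicate 1 was the highest and replicate 3 the lowest of the 4 in 10 of 10 genes, an order seen in 1353 of 14785 tested genes (9.15%). Because the 10 genes vary together within the groups, they do not count as 10 separate observations of this order. Averaged over the 10 genes, replicate 1 lay 0.37 log2 units above the empty-vector mean and replicate 3 lay at -0.37, while replicates 2 and 4 lay at 0.03 and -0.03. The summed level of the 10 genes was 1116, 870.0, 641 and 818 CPM in the empty-vector libraries and 1440, 1475, 1508 and 1665 CPM in the ADRA2A libraries. Both outlying libraries were deep, with 17003833 counts in replicate 1 and 17341489 in replicate 3. In 4 of the 10 genes the ratio of highest to lowest empty-vector library exceeded the ratio of the group means.

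**Figure D2:**
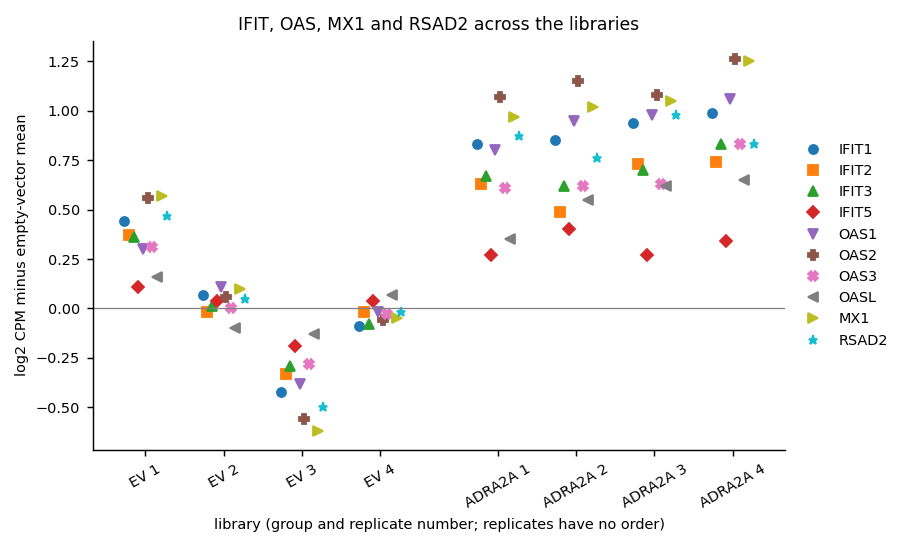
log2 CPM of each gene minus its empty-vector mean (vertical axis) in each of the 8 libraries (horizontal axis, replicates in no order), with 1 marker per gene. All markers of empty-vector replicate 1 lie above 0 and all of replicate 3 below it, with MX1 at 0.57 and -0.62 and IFIT5 at 0.11 and -0.19, and all markers of the ADRA2A libraries lie above those of the same gene with the empty vector.

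Among the 10160 genes of at least 10 CPM, the median SD of log2 CPM over the 4 libraries was 0.07 in either group, and the 90th percentile was 0.15. The antiviral genes had a median SD of 0.29 with the empty vector, from 0.13 for IFIT5 to 0.49 for MX1, and 8 of the 10 were above the 90th percentile. With the transgene their median SD was 0.10 and 0 of the 10 were above it. The SD was larger with the empty vector in 10 of 10 genes, against 49.4% of all genes at that abundance, counting any difference. For OASL the difference was slight (0.141 against 0.136). In the ADRA2A group replicate 4 was the highest in 8 of the 10 genes, with a mean deviation of 0.10, and in 27.1% of all tested genes. The 10 genes vary together within the groups and were chosen with earlier results of these data known. The counts of genes given here are therefore not counts of separate observations.

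**Figure D3:**
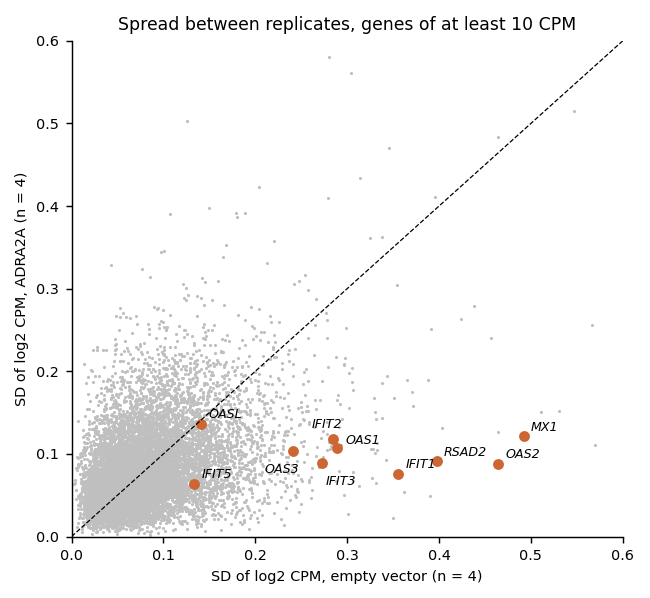
SD of log2 CPM over the 4 empty-vector libraries (horizontal) and over the 4 ADRA2A libraries (vertical) for genes of at least 10 CPM (grey) and the 10 antiviral genes (orange), with equal spread on the dashed line. The antiviral genes lie below or close to the line, MX1 farthest out at an empty-vector SD of 0.49, and 11 grey genes lie outside the axes.

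With 1 library left out at a time, the log2 fold change of each of the 10 genes was lowest without empty-vector replicate 3 and highest without replicate 1. Among the empty-vector libraries this follows from replicate 3 being the lowest and replicate 1 the highest in each gene, so it is no further result. MX1 ran from 0.84 to 1.24, OAS2 from 0.92 to 1.31, IFIT1 from 0.75 to 1.04 and IFIT5 from 0.25 to 0.36. All 10 genes stayed higher with an adjusted p under 0.05 in each of the 8 fits of edgeR's quasi-likelihood test with a library left out.

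**Figure D4:**
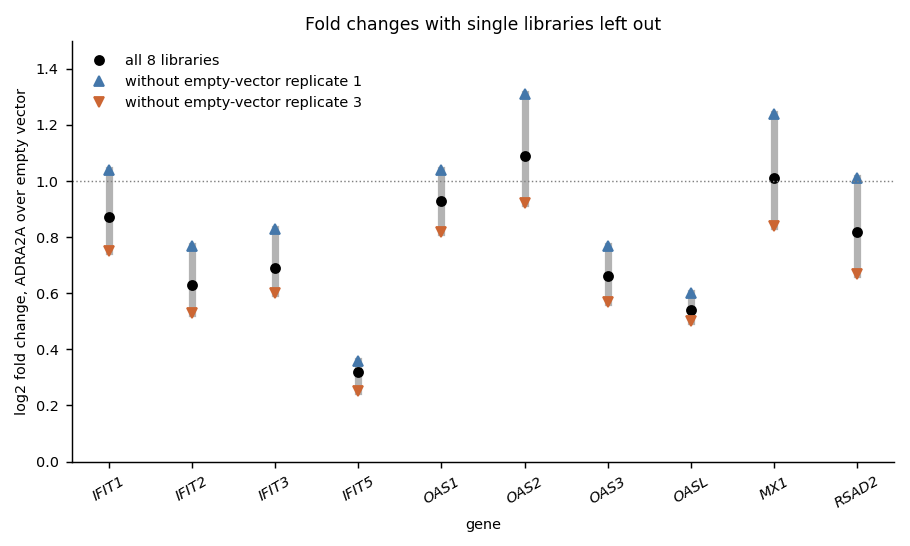
log2 fold change of each gene (ADRA2A over empty vector) with all 8 libraries (black), with single libraries left out (grey bars: lowest to highest over 8 fits) and without empty-vector replicate 1 or 3 (triangles). The triangles mark the ends of the bars, as in MX1 from 0.84 to 1.24, and all values lie above 0.

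To compare levels between genes, CPM was divided by the length of the MANE Select transcript. On this per-kilobase scale MX1 was the most abundant in both groups, at 69.1 ± 22.9 CPM per kb with the empty vector and 140.0 ± 12.1 with the transgene, followed by OAS1 at 49.1 ± 9.42 and 93.6 ± 6.83. IFIT3 and OAS3 came next at 35.4 ± 6.90 and 35.3 ± 6.0 CPM per kb with the empty vector, and IFIT3 was the higher of the pair in only 2 of 4 libraries. IFIT1 (18.6 ± 4.62) and OAS2 (17.2 ± 5.50) followed, with IFIT1 higher in 4 of 4 empty-vector libraries. IFIT2 (12.1 ± 2.44) and IFIT5 (10.9 ± 0.97) had overlapping ranges, and OASL (4.22 ± 0.415) and RSAD2 (3.94 ± 1.07) were the lowest. Between neighbours in this order the ranges were separate only from OAS3 to IFIT1 and from IFIT5 to OASL. With the transgene the order changed in 2 places. OAS2 (36.5 ± 2.26 CPM per kb) stood above IFIT1 (34.1 ± 1.80) in 3 of 4 libraries, and RSAD2 (6.95 ± 0.445) stood above OASL (6.15 ± 0.560) in 4 of 4 libraries, with overlapping ranges in both pairs.

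Within the groups the antiviral genes varied together. With each gene expressed as its deviation from the group mean, Pearson's r over the 8 libraries between a gene and the mean of the other 9 was 0.994 for MX1, 0.989 for IFIT1 and 0.984 for OAS2, and lowest for IFIT5 (0.825) and OASL (0.673). Over the 45 pairs the median r was 0.918 and the lowest 0.582. All these values share the same 8 libraries and the largest deviations are those of empty-vector replicates 1 and 3, so they are given as a description. Of 14044 other genes, MX2, the paralog of MX1 next to it on chromosome 21, followed the 10 genes most closely (r = 0.987), with a mean of 39.6 ± 14.4 CPM with the empty vector and 89.8 ± 9.82 with the transgene (log2 fold change 1.18 ± 0.15). The ubiquitin-like modifier ISG15 (r = 0.974) had a log2 fold change of 0.87 ± 0.10, GBP4 (0.984) had 0.80 ± 0.08, SP100 (0.969) had 0.52 ± 0.06 and IFI44 (0.971) had 0.37 ± 0.07. The others of the 10 most alike were SCNN1D (0.986), AFTPH (0.98), IDUA (0.979), PLEKHO2 (0.972) and POFUT2 (0.968). SCNN1D and POFUT2 did not pass the test between groups (adjusted p = 0.166 and 0.183, edgeR), but did without empty-vector replicate 1 (0.0453 and 0.0284). AFTPH (log2 fold change 0.18 ± 0.05, adjusted p = 0.0114 by edgeR) no longer passed without empty-vector replicate 3 (0.0504). These genes were chosen for following a pattern with empty-vector replicate 1 high and replicate 3 low, so such shifts are partly built into the choice.

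Interferon ligands were nearly undetected. Of 22 ligand genes, 18 had 0 counts in every library, among them IFNB1, IFNG and all 13 IFNA genes, and IFNL1, IFNL2 and IFNL3 had at most 1 count. IFNE, an interferon of epithelia, was the only ligand tested and rose from 1.41 ± 0.657 to 2.73 ± 0.445 CPM (log2 fold change 0.94 ± 0.29, adjusted p = 0.0135 by edgeR). Of 9 receptor and kinase genes, 5 rose and 0 fell, and the list's median was 0.27 on the log2 scale. Beside this list and those below, 21.6% of all tested genes passed as higher and 42.7% in either direction. JAK1, the kinase shared by the interferon receptors, rose from 173 to 214 CPM (0.31 ± 0.04), IFNGR1, a chain of the receptor for interferon gamma, by 0.35 ± 0.05 and IFNAR2, a chain of the type I receptor, by 0.40 ± 0.07.

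Of 10 transcription factors of the pathway, 8 rose and 2 fell, with a median of 0.36, and the number that fell was between 1 and 2 over the alternatives. Among all tested genes 21.6% rose. STAT2 rose from 78.7 ± 11.0 to 103 ± 4.07 CPM (log2 fold change 0.39 ± 0.07) and its partner IRF9 from 71.9 ± 12.7 to 103 ± 5.15 CPM (0.51 ± 0.08). STAT2, IRF9 and IRF7 also had replicate 1 highest and replicate 3 lowest among the empty-vector libraries. IRF7, a factor for interferon genes that is itself interferon-induced, rose by 0.33 ± 0.10, with overlapping groups. IRF1, IRF2, IRF5 and IRF8 rose by 0.28 ± 0.04, 0.25 ± 0.06, 1.17 ± 0.20 and 0.90 ± 0.13, IRF5 and IRF8 from low levels of 2.30 and 5.70 CPM. IRF3, which acts downstream of nucleic acid sensors, fell from 56.8 to 47.8 CPM (-0.25 ± 0.05).

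Of 14 nucleic acid sensors and adaptors, 8 rose and 3 fell (median 0.32). Among all 14785 tested genes 3195 rose (21.6%) and 3119 fell, so the share of this list that fell was near that of all genes. TMEM173 (STING1), the adaptor downstream of the DNA sensor cGAS, rose from 41.5 ± 3.50 to 101 ± 4.2 CPM (log2 fold change 1.29 ± 0.06), TLR3, an endosomal sensor of double-stranded RNA, rose by 0.44 ± 0.06, and MAVS, the adaptor of the cytosolic RNA sensors, fell from 149 to 119 CPM (-0.32 ± 0.05). Of 7 tested negative regulators, 3 rose and 2 fell (median 0.06), so this small list was mixed in direction. USP18, which removes ISG15 from proteins and dampens type I receptor signalling, rose by 0.46 ± 0.09, PIAS1 by 0.30 ± 0.06 and TRIM21 by 0.43 ± 0.08.

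Of 54 tested other interferon-stimulated genes, 46 rose, 1 fell and 7 did not pass the test, and the list's median was 0.49 on the log2 scale. Among all tested genes 21.6% rose. The membrane proteins IFITM3 and IFITM2, which hinder viral entry, rose by 0.81 ± 0.04 and 0.65 ± 0.04, and the DNA-binding protein IFI16 by 0.70 ± 0.05. The empty-vector order of the 10 antiviral genes, with replicate 1 highest and replicate 3 lowest, was present in 33 of these 54 genes. It was also present in 7 of the 14 sensors and adaptors, 1 of 9 receptors and kinases and 1 of 7 tested negative regulators. A second list, biased towards interferon gamma, showed it in 3 of 14 tested genes, against 9.15% of all tested genes. In that second list 11 rose and 1 fell (median 0.52). The gene that fell was CD274 (-0.92 ± 0.10). The list held 18 genes, of which GBP5, CXCL9, CXCL10 and CXCL11 had at most 13 counts in a library and were not tested. The 3 with the smallest p were the complement inhibitor SERPING1 (1.87 ± 0.09) and the antigen presentation genes CD74 (0.70 ± 0.03) and HLA-DRA (0.62 ± 0.04).

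**Figure D5:**
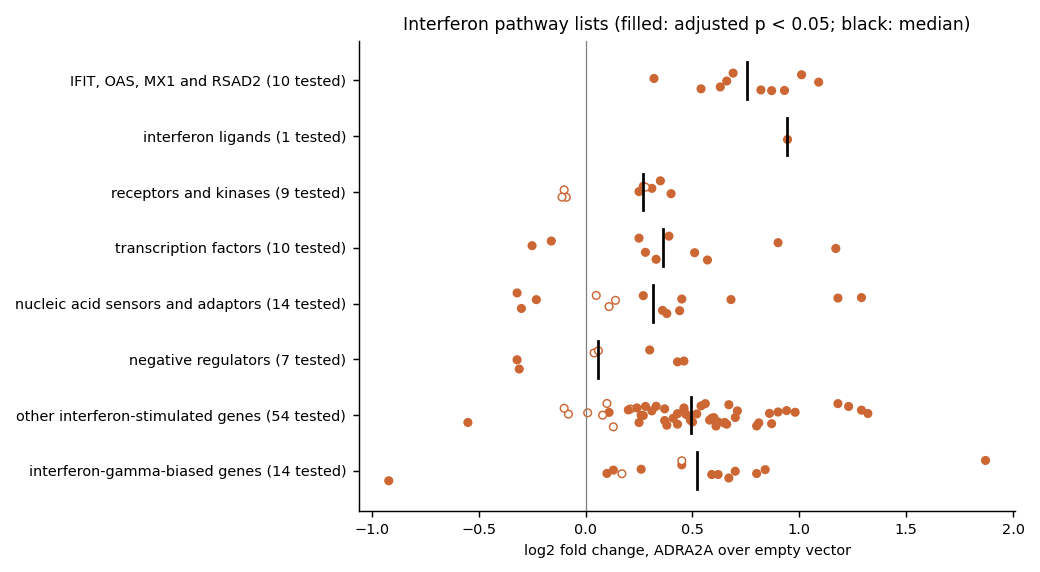
log2 fold change (ADRA2A over empty vector) of each tested gene in the antiviral set and 7 pathway lists, with filled points for an adjusted p under 0.05, open points otherwise and black lines for the list median. The antiviral genes run from 0.32 to 1.09 around a median of 0.76, and the other interferon-stimulated genes have a median of 0.49.

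Of 75 tested genes within 1 Mb of the 10 genes, 27 rose and 10 fell, and their median was 0.11 on the log2 scale. Over all 14785 tested genes, 3195 rose (21.6%) and 3119 fell. The share that rose was thus larger among these neighbours and the share that fell smaller, but the loci differed. Around the IFIT cluster 2 of 10 neighbours rose and 5 fell (median -0.07), around OAS1, OAS2 and OAS3 5 of 16 rose and 0 fell (0.11), and around OASL 17 of 38 rose and 3 fell (0.14). The highest neighbours of MX1 and RSAD2 were MX2 and CMPK2, which belong to the list of other interferon-stimulated genes.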

How the data were processed

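RNA was measured in 8 libraries, 4 per group, by bulk RNA sequencing. The authors deposited 1 table of gene-level estimated counts from RSEM, not scaled between libraries. Per the submitters' processing notes, cutadapt, STAR, RSEM, DESeq2 and hg38 were used. Versions, annotation release and strand setting are not given in the sources used here. Reads shared by paralogs are divided by RSEM, so MX1 and MX2, and the OAS genes, could exchange some counts.

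After rounding, edgeR's filterByExpr left 14785 genes, and libraries were scaled with TMM factors (trimmed means). edgeR 4.0.16 (quasi-likelihood test, group as the single term, Benjamini-Hochberg over all genes tested) gave fold changes; SE is the log2 fold change divided by the square root of F. The script was tested on simulated counts with the same small dispersion for every gene. That run does not cover the wider spread of most antiviral genes between empty-vector libraries. Positions and transcript lengths are from GENCODE release 44 on GRCh38 (58517 of 58870 genes matched), promoters from RefSeq. No pair of replicates agreed within sampling noise. Alternatives were DESeq2 1.42.0, RLE and upper quartile factors, limma 3.58.1 voom with and without quality weights, robust dispersion, other filters, a replicate block and each library left out.

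The 10 genes and the pathway lists were chosen with earlier results of these data known. Genes named beside the 10 were, per list, the 3 with the smallest p and the tested transcription factors, some of which are not reported here, and the 10 genes of at least 1 CPM with the highest r. Other genes, such as overlapping neighbours and cell type markers, were named after their values were seen.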

Additional observations from a re-analysis of the deposited data

Results flagged for a closer look

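In 4 of 92 groups of 4 libraries tested, 1 library stood apart from the other 3 by more than Dixon's 95% critical value, which chance gives in about 1 in 20 groups. OAS3 stood at 409 CPM in ADRA2A replicate 4, with the others between 353 and 356 CPM. MX2 stood at 104 CPM in the same library, with the others between 83.2 and 86.5 CPM. IRF1 stood at 80.2 CPM in ADRA2A replicate 2, with the others between 85.4 and 86.4 CPM. POFUT2 stood at 35.1 CPM in ADRA2A replicate 3, with the others between 33.7 and 33.9 CPM.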

How the results depend on the processing

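All 10 antiviral genes were called higher in each of 17 alternatives, and the largest adjusted p was 0.0153, for MX1 with edgeR's robust dispersion. The count with a log2 fold change of at least 1, which was 2, was 1 with upper quartile factors (OAS2) and ran from 0 to 5 with single libraries left out. Without empty-vector replicate 1 the 5 genes were IFIT1, OAS1, OAS2, MX1 and RSAD2. The labels do not say whether replicate numbers pair the samples. Deviations from the group mean, correlated over genes, gave values between -0.04 and 0.07 for same-numbered libraries, which cannot settle it. A replicate block called 10 of the 10 genes, 2 of them at that size, and 6400 genes in all, against 6314. IFNE was not tested at a mean of 50 counts. Over the alternatives, between 42 and 47 other interferon-stimulated genes rose and 1 to 2 fell. The number that rose was 9 to 11 in the list biased towards interferon gamma, 7 to 8 among sensors and adaptors and 5 to 6 among receptors and kinases. Across settings between 5703 and 6550 genes were called. Without the filter adjusted p-values fell as low as 7.89e-146 for MX1, and the cause was not tested.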
